A study of Mus musculus with 6 samples.

Results

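Aldoa, Aldoc, Tpi1, Pgk1, Pgam1 and Pkm encode enzymes of glycolysis between the aldolase step, which splits fructose-1,6-bisphosphate, and the pyruvate kinase step, which releases pyruvate. They were chosen by gene name, and all 6 were found among the 923 genes of the deposited table. Ileum RNA from 3 mice labelled HIF-1α overexpression (Hif1α LSL/LSL;VilERcre) was compared with ileum RNA from 3 mice labelled flox control (Hif1α LSL/LSL), 1 library per mouse. Both groups carry the LSL-HIF1 dPA allele on a C57BL/6 background and, by the study's general animal methods, received tamoxifen. In the overexpression mice a tamoxifen-activated Cre driven by the villin promoter switches the allele on, so that the change is directed to epithelial cells, while the RNA came from ileum as a whole. The labels give 2 males and 1 female per group, with the female as replicate 3, whereas the paper calls these mice male. The sources used here do not give the diet and age of the sequenced mice.

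Glycolysis converts glucose to pyruvate in the cytosol and gives a small yield of ATP without using oxygen. HIF-1 is a transcription factor whose α subunit is degraded when oxygen is plentiful, and genes of glycolytic enzymes are among its best known targets. It binds DNA at a short core, written A or G followed by CGTG, in so-called hypoxia response elements. Several steps exist as isoenzymes from separate genes. Aldolase A is the muscle-type enzyme found in most cells, and aldolase C is the brain-type enzyme. Pyruvate kinase comes from Pkm in most tissues and from Pklr in some, among them liver and red cells.

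The table limits what can be said. It holds the 923 genes whose unadjusted p was under 0.05 when the authors tested 19204, so fold changes in it lean high, and a gene outside it is called not listed. Pklr, Pgk2, Pgam2 and Bpgm were not listed, and their levels were not analysed here. Library totals implied by the FPKM values (fragments per kilobase of gene, scaled to the library total) ran from 18918341 to 23730552 in the libraries labelled overexpression and from 22542061 to 24905343 in the flox control libraries. Reads counted for the 6 genes made up 0.308% to 0.359% of the library total in the libraries labelled overexpression and 0.149% to 0.182% in the flox control libraries. The mouse Hif1a gene gave 535, 728 and 741.3 normalized counts (counts divided by the authors' size factor for the library) in the libraries labelled overexpression, against 740.5, 1063 and 1185 in flox controls. That was not higher in the libraries labelled overexpression (log2 fold change -0.58, adjusted p = 1 from edgeR's quasi-likelihood test). No source used here says whether reads of the allele are counted under Hif1a, so this gene does not check the labels, and the groups are named as labelled throughout.

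The letters of the HIF core were looked up near the transcript starts of the 6 genes, because the difference between the groups had the same direction in all 6. The search used ACGTG and GCGTG on either strand (CACGT and CACGC when read on the given strand), of which ACGTG and CACGT can overlap within CACGTG, in RefSeq windows of GRCm38.p6 from 250 bases before to 50 bases after each start. All 6 genes had a window, 10 windows in all, and 7 of the 10 held a match, against 43.8% of all 32851 mouse windows (14380). The Aldoa windows among these 7 hold the same match. By gene, all but Tpi1 had a match in at least 1 window, against 46.7% of 27025 genes. The windows were not matched for base composition or for the number of starts per gene. Pgk1 and Pgam1 had 1 window each, with 2 and 3 matches, all before the start. The 200 bases before the start, chrX:106186900-106187099 for Pgk1 and chr19:41911671-41911870 for Pgam1, both on the + strand, are given 5′ to 3′ with the matches in capitals.
Pgk1: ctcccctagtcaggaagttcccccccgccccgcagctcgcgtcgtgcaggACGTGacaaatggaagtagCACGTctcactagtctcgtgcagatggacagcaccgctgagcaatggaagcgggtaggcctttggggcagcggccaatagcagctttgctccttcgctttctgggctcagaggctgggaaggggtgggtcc
Pgam1: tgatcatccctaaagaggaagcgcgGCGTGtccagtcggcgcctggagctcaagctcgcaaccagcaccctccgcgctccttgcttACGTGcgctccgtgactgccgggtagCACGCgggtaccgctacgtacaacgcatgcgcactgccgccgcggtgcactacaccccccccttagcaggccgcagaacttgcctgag
In Pgk1 the matches began at positions -150 and -131 from the start, and in Pgam1 at -175, -114 and -88.

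For the genes with several starts, the match depended on the start. Both aldolase genes and Pkm are shown by 30 bases around the match farthest upstream in a window, so that the windows can be set beside those of Pgk1 and Pgam1. Aldoc held 3 matches at its first start, at -50, 12 and 28, and 1 at a later start, at -39. The stretches are chr11:78323011-78323040 and chr11:78324147-78324176, on the + strand.
Aldoc, first start: ccacctctgaggGCGTGgccttaccctaga
Aldoc, later start: cctcccatccccCACGCtgcatctcttctg
Aldoa held none at its first start and the same match in the windows of both later starts, at chr7:126799363-126799392 on the - strand. Pkm held none at its first start and 2 at a later start, at -75 and 9, of which the upstream one lies in chr9:59657140-59657169 on the + strand.
Aldoa, later starts: tgtggctcgagtCACGTcctagcggggcgg
Pkm, later start: ctccgatccggtCACGTccgcgccgcagca
Tpi1 held no match in its window, which says only that these letters are not in those 300 bases. A match is a description of the letters and not a binding site.

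All 6 genes were higher in the 3 libraries labelled overexpression than in any of the 3 flox control libraries, as were 314 of the 767 listed genes fitted, or 40.9%. By edgeR's quasi-likelihood test with Benjamini-Hochberg adjustment over the 19204 genes, 4 of the 6 rose, namely Aldoc, Pgk1, Pgam1 and Pkm, and none fell. In the same fit 2.74% of the 767 genes were called higher and 2.87% in either direction, 22 genes in all. Tpi1 and Aldoa did not pass. DESeq2, which called 7.82% of the 767 genes higher, called all 6. The paper names DESeq2 for its own test, whose p chose the listed genes, so this call is not a separate check. The median log2 fold change was 1.12 over the 6 genes and 0.34 over the 767, of which 415 had a value above 0. In ileum as a whole, more cells of a type and more RNA per cell cannot be told apart.

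**Figure D1:**
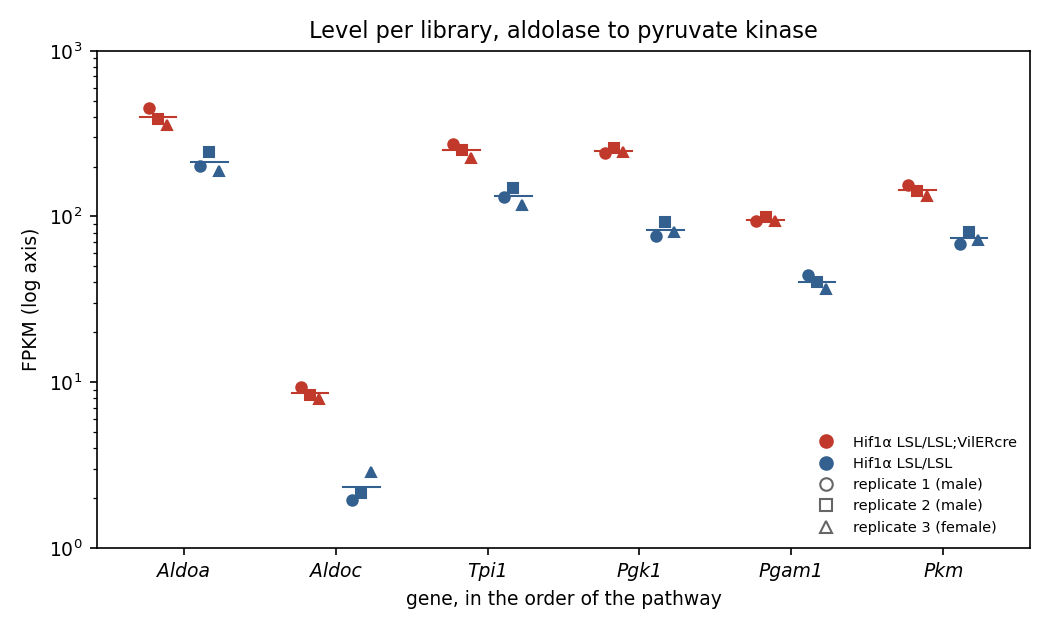
Level of each gene in every library in FPKM on a log axis, with Hif1α LSL/LSL;VilERcre libraries in red on the left and Hif1α LSL/LSL libraries in blue on the right of each gene; bars are group means, circles and squares males and triangles females. No red point lies at or below a blue point of its gene, and Aldoc, at 1.93 to 9.36 FPKM, lies far below the other 5.

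Aldolase A and aldolase C catalyse the same cleavage and differed widely in level. Aldoa (ENSMUSG00000030695, chr7:126795234-126800751 on GRCm38, - strand) had 449, 388 and 356 FPKM in the libraries labelled overexpression, against 202, 246 and 189 FPKM in flox controls. Aldoc (ENSMUSG00000017390, chr11:78322968-78327781, + strand) had 9.36, 8.40 and 7.94 FPKM in the libraries labelled overexpression, against 1.93, 2.14 and 2.88 FPKM in flox controls. Neither gene overlapped between the groups. The lowest overexpression library stood 2.77-fold above the highest flox control library for Aldoc and 1.46-fold for Aldoa, in normalized counts. The log2 fold change was 1.90 for Aldoc (standard error 0.20, adjusted p = 0.00594 from edgeR). For Aldoa it was 0.92 (standard error 0.16, adjusted p = 0.161 from edgeR), which did not pass. With 1 library left out at a time, Aldoc passed in 5 of 6 fits, the exception being the fit without replicate 1 of the overexpression group (adjusted p = 0.0701 from edgeR). A further annotated Aldoa locus, just upstream of the gene, was not listed, and the annotation places Fam57b across part of Aldoa on the other strand. No source used here says whether strand was used in counting, so Aldoa and Fam57b reads may not be told apart.

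Because FPKM values are per length, the aldolases can be set against each other within a library. The ratio of Aldoa to Aldoc was 47.9, 46.1 and 44.9 in the libraries labelled overexpression, against 104, 115 and 65.3 in flox controls. Aldoc thus made up 2.04%, 2.12% and 2.18% of the summed FPKM of Aldoa and Aldoc in the libraries labelled overexpression, against 0.948%, 0.864% and 1.51% in flox controls. The share averaged 2.12% ± 0.07 in overexpression and 1.11% ± 0.35 in flox control libraries (SD, n = 3 each), and the groups did not overlap. The difference of 1.01 percentage points had p = 0.1 in an exact permutation test, two-sided, the smallest p that 3 against 3 allow. The share is of these 2 genes alone. Flox control replicate 3, the female, had the highest Aldoc level and share of its group.

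Triose phosphate isomerase, encoded by Tpi1, interconverts the triose phosphates that aldolase makes. Tpi1 (ENSMUSG00000023456, chr6:124810586-124814296, - strand) had 274, 253 and 226 FPKM in the libraries labelled overexpression, against 132, 149 and 117 FPKM in flox controls. Its groups lay apart by 1.53-fold at the nearest in normalized counts. The log2 fold change was 0.93 (standard error 0.15, adjusted p = 0.0843 from edgeR), short of the threshold. With sex as a covariate Tpi1 passed (adjusted p = 0.0384 from edgeR), and with any 1 library left out it did not (adjusted p from 0.142 to 0.537 from edgeR). The last bases of Tpi1 overlap Spsb2 on the other strand.

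Phosphoglycerate kinase, encoded by Pgk1, carries out the step that forms the first ATP of the pathway's lower part. Pgk1 (ENSMUSG00000062070, chrX:106187100-106203699, + strand) had 243, 260.1 and 246 FPKM in the libraries labelled overexpression, against 75.9, 92.5 and 81.0 FPKM in flox controls. The means were 249.6 ± 9.22 FPKM and 83.1 ± 8.52 FPKM (SD, n = 3 each), a 3.00-fold difference. The values within a group lay close together, and the lowest overexpression library was 2.66-fold above the highest flox control library in normalized counts. Pgk1 rose by 1.60 on the log2 scale (standard error 0.14, edgeR adjusted p = 0.00221). Among the 6 genes only Pgk1 still passed whichever library was left out, with adjusted p between 0.00517 and 0.0348 in edgeR.

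Phosphoglycerate mutase, encoded by Pgam1, moves the phosphate from the outer to the middle carbon. Pgam1 (ENSMUSG00000011752, chr19:41911871-41918664, + strand) had 93.8, 99.2 and 93.8 FPKM in the libraries labelled overexpression, against 44.1, 40.4 and 36.4 FPKM in flox controls. The overexpression libraries were within 6 FPKM of each other and 2.11-fold above the highest flox control library at the nearest, in normalized counts. The log2 fold change was 1.25 (standard error 0.13, adjusted p = 0.00594 from edgeR). The call was lost without overexpression replicate 1 (adjusted p = 0.0701 from edgeR) and without overexpression replicate 2 (adjusted p = 0.0561 from edgeR) and kept in the other 4 such fits.

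Reads of Pgk1 and Pgam1 may be split with near-identical copies. Of the 150-base windows of their GENCODE M21 transcripts, 49.4% for Pgk1 and 32.2% for Pgam1 also occurred in transcripts of other genes, against 0% for Aldoa, Aldoc and Tpi1 and 7.22% for Pkm. The processed pseudogene Pgk1-rs7 on chromosome 12 had 61.7, 60.7 and 58.3 normalized counts in the libraries labelled overexpression, against 24.7, 15.8 and 20.7 in flox controls, and between 0.348% and 0.651% of the Pgk1 count over the 6 libraries. Pgam1-ps2, a processed pseudogene on chromosome 7, had 31.8, 62.8 and 40.8 normalized counts in the libraries labelled overexpression, against 16.8, 19.3 and 4.70 in flox controls. That was between 0.322% and 1.56% of the Pgam1 count. Neither copy passed (log2 fold change 1.56, adjusted p = 0.833 and 1.72, adjusted p = 1 from edgeR). How reads that fit both a gene and its copy were counted was not tested.

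Pyruvate kinase of muscle type, encoded by Pkm, makes pyruvate and ATP at the end of the pathway. Pkm (ENSMUSG00000032294, chr9:59656368-59679375, + strand) had 156, 143 and 134 FPKM in the libraries labelled overexpression, against 68.4, 81.0 and 71.8 FPKM in flox controls. The nearest libraries of the groups differed 1.66-fold in normalized counts. The log2 fold change was 0.98 (standard error 0.14, adjusted p = 0.0360 from edgeR), and the call was lost whichever library was left out (adjusted p between 0.106 and 0.285). The M1 and M2 forms arise from Pkm by a choice between exons, and a count per gene does not separate them. A transcript annotated inside Pkm on the same strand, AC160637.1, is listed with 363, 322 and 481 normalized counts in the libraries labelled overexpression and 242, 221 and 362 in flox controls, which overlapped. It and the pseudogene Gm6560, which shares windows with Pkm and had 152, 118 and 75.8 normalized counts in the libraries labelled overexpression against 59.2, 74.7 and 65.9 in flox controls, were named after their values were seen, and neither passed (adjusted p = 1 from edgeR for both).

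The order of the genes by FPKM was the same in all 3 flox control libraries, with Aldoa highest, then Tpi1, Pgk1, Pkm, Pgam1 and Aldoc. Overexpression replicate 1 had that order as well, and in overexpression replicates 2 and 3 Pgk1 stood above Tpi1. The ratio of Pgk1 to Tpi1 in FPKM was 0.885, 1.03 and 1.09 in the libraries labelled overexpression, against 0.576, 0.620 and 0.693 in flox controls. The ratio averaged 1.00 ± 0.10 in overexpression and 0.63 ± 0.06 in flox control libraries (SD, n = 3 each), so that Pgk1 and Tpi1 did not differ beyond their spread in the overexpression libraries and did in flox controls. Pgk1 exceeded Pkm in FPKM within every library, by 1.56-fold, 1.82-fold and 1.84-fold in the libraries labelled overexpression. In flox controls it did so by 1.11-fold, 1.14-fold and 1.13-fold, where the ranges of Pgk1 and Pkm over the 3 libraries overlapped. Aldoa exceeded Tpi1 in FPKM by 1.64-fold, 1.53-fold and 1.57-fold in the libraries labelled overexpression. The values in flox controls were 1.53-fold, 1.65-fold and 1.61-fold, so this ratio overlapped between the groups. Orders and shares in FPKM depend on the gene length used, 5001 bases for Pkm and 2244 for Pgk1. In normalized counts, which are not divided by length, Pkm exceeded Pgk1 in every library. The means were 15948 against 12401 in overexpression and 8107 against 4103 in flox control libraries.

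Summed over the 6 genes, FPKM reached 1225, 1151 and 1064 in the libraries labelled overexpression, against 524, 611 and 497 in flox controls. The means of 1147 ± 80.5 and 544 ± 59.3 FPKM (SD, n = 3 each) differed 2.11-fold, with p = 0.1 in an exact permutation test, two-sided, the smallest p possible here. Pgk1 made up 21.8% ± 1.78 of the sum in overexpression and 15.3% ± 0.91 in flox control libraries (SD, n = 3 each). Aldoa, by contrast, made up 34.6% in overexpression and 38.9% in flox control libraries, and Tpi1 21.9% and 24.4%. For both of these, and for Pgk1, the groups did not overlap (exact permutation p = 0.1 each).

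The size of the difference varied along the lower pathway, though no pair of genes was shown to differ by the tests available. The 6 log2 fold changes spanned 0.98 from Aldoa to Aldoc and did not follow the order of the steps, since the aldolase step held both extremes. Ratios between 2 genes within a library, which do not depend on how libraries are scaled, were compared for all 15 pairs. The ratios did not overlap between the groups in 9 pairs and overlapped in 6. Among the 9 pairs that set Aldoc, Pgk1 or Pgam1 against Pkm, Tpi1 or Aldoa, 7 did not overlap. That division of the genes was made after the fold changes were seen. It sets the 3 larger rises in these libraries against the 3 smaller, so it favours ratios that lie apart. The 15 pairs come from 6 genes and are not independent. The share of such pairs among other listed genes was not computed. With 3 libraries against 3 the smallest exact permutation p was 0.1, or 0.167 after Benjamini-Hochberg adjustment over the 15 pairs, so no pair could pass and none did.

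**Figure D2:**
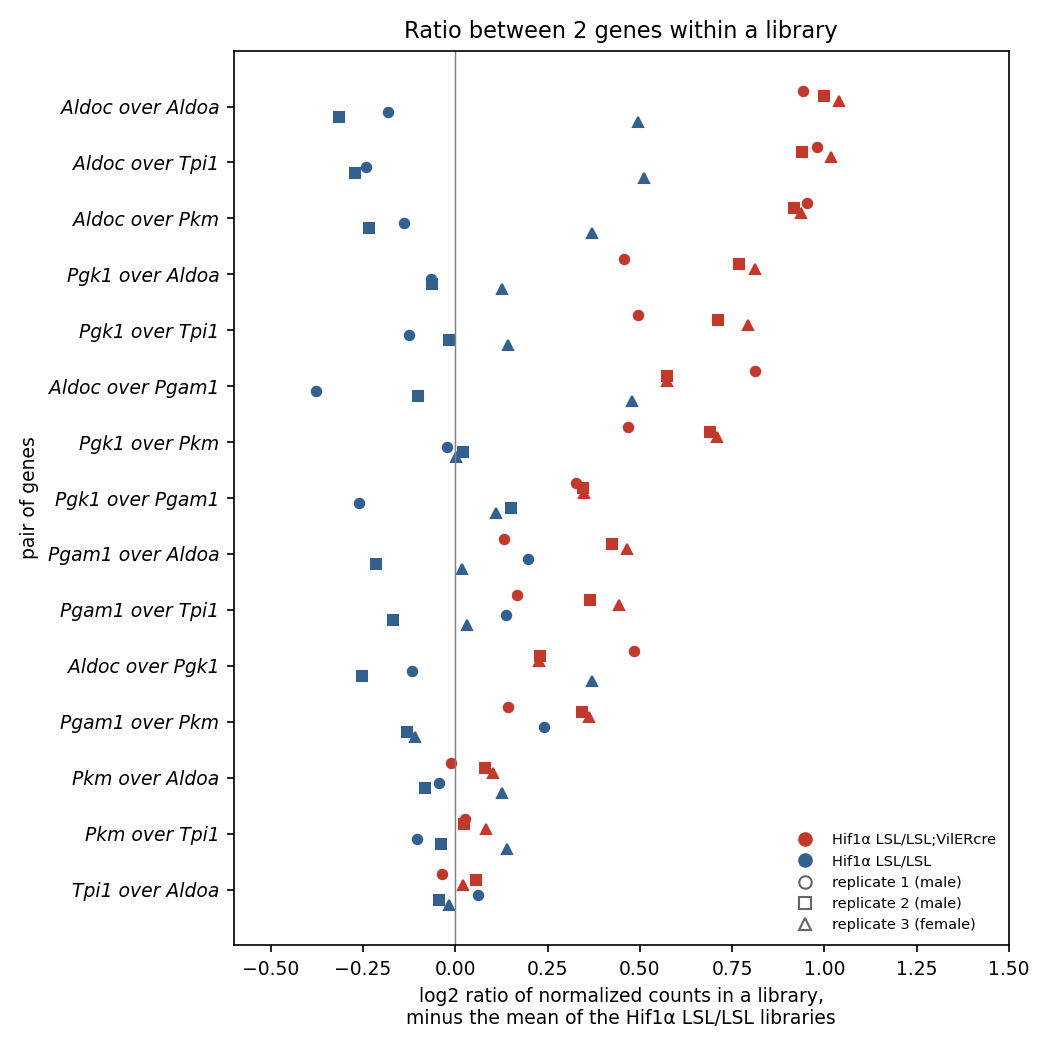
Log2 ratio of normalized counts between 2 genes in each library, minus the mean of the Hif1α LSL/LSL libraries, for the 15 pairs ordered by the difference between the groups; Hif1α LSL/LSL;VilERcre libraries are red and drawn above Hif1α LSL/LSL libraries in blue. The groups are apart in 9 pairs, and the 3 pairs at the bottom, among Pkm, Tpi1 and Aldoa, lie on top of each other.

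The widest differences involved aldolase C. The log2 ratio was higher in the libraries labelled overexpression by 0.99 for Aldoc over Aldoa, by 0.98 for Aldoc over Tpi1 and by 0.94 for Aldoc over Pkm. Pgk1 followed with 0.68 over Aldoa, 0.67 over Tpi1 and 0.62 over Pkm. These 6 pairs did not overlap between the groups, nor did Aldoc over Pgam1 (0.65), Pgk1 over Pgam1 (0.34) and Pgam1 over Tpi1 (0.33). The Aldoc ratios were spread in flox controls, where replicate 3 lay above the other 2.

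Tpi1, Aldoa and Pkm had the smallest differences in ratio of the 15 pairs. The log2 ratio differed between the groups by 0.01 for Tpi1 over Aldoa, by 0.04 for Pkm over Tpi1 and by 0.06 for Pkm over Aldoa, and all 3 overlapped (exact permutation p = 0.8, 0.5 and 0.5). The SD of these ratios within a group was between 0.03 and 0.13. Aldoc over Pgk1 (0.31, exact permutation p = 0.3), Pgam1 over Aldoa (0.34, p = 0.2) and Pgam1 over Pkm (0.28, p = 0.2) also overlapped.

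Within a group the genes shared a library pattern in part. Overexpression replicate 1 was the highest of its group for Aldoa, Aldoc, Tpi1 and Pkm and replicate 2 for Pgk1 and Pgam1. Overexpression replicate 3, the female, was the lowest for 5 of the 6 genes, all but Pgk1. In flox controls replicate 2 was highest for Aldoa, Tpi1, Pgk1 and Pkm, replicate 3 for Aldoc and replicate 1 for Pgam1. Averaged over the 6 genes, the log2 deviation from the group mean was 0.09, 0.01 and -0.10 in the overexpression libraries and -0.05, 0.09 and -0.04 in the flox control libraries. These deviations were small against the median log2 fold change of 1.12.

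**Figure D3:**
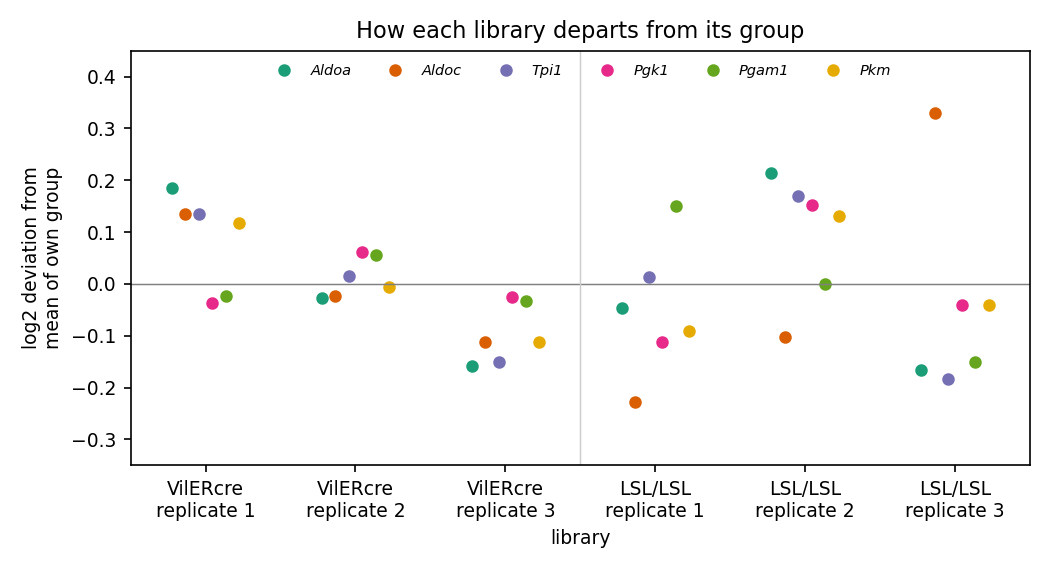
Log2 deviation of normalized counts from the mean of the library's own group, by library, with 1 colour per gene and Hif1α LSL/LSL;VilERcre libraries left of Hif1α LSL/LSL libraries. Aldoa, Tpi1 and Pkm move together from library to library, and Aldoc departs from them in the flox control libraries.

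Split by sex, the direction was the same for all 6 genes, with 2 males against 2 and 1 female against 1. The log2 difference in males and in the female pair was 0.91 and 0.93 for Aldoa, 0.92 and 0.96 for Tpi1, 1.59 and 1.61 for Pgk1 and 1.01 and 0.91 for Pkm. For Pgam1 it was 1.20 in males and 1.38 in the female pair. Aldoc differed most, with 2.13 in males and 1.47 in the female pair, and the female flox control library held the highest Aldoc level of its group. A group-by-sex term in edgeR, with 2 residual degrees of freedom and 1 female per group, gave a female minus male difference of -0.66 for Aldoc (standard error 0.34, unadjusted p = 0.0926, adjusted p = 1). For the other 5 genes it lay between -0.10 for Pkm and 0.18 for Pgam1, with standard errors of 0.25 to 0.32 and adjusted p = 1 for each. This test was added after the values by sex had been seen, and a p of this size does not show that the sexes were alike.

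The neighbouring enzymes of the pathway were given by a list of 23 other genes of glycolysis, of which 9 were listed and 14 were not. All 9 had a positive log2 fold change, 3 passed edgeR as higher and none as lower, and their median was 1.17, beside 1.12 for the 6 genes and 0.34 for all 767. The 3 were Hk1, a hexokinase of the entry step (1.17), Pfkl, the liver-type phosphofructokinase (1.92), and Eno1, enolase (1.41), which acts between Pgam1 and Pkm. Gapdh, which acts between Tpi1 and Pgk1, had a value of 1.83 with a standard error of 0.41 and did not pass (adjusted p = 0.452 from edgeR). Its counted level was low, with 16.2, 11.2 and 4.25 FPKM in the libraries labelled overexpression, against 2.22, 2.85 and 3.91 FPKM in flox controls. Its female pair had 387 and 354 normalized counts. Sequence shared with copies was not looked up for Gapdh or the other genes of this list. The part of reads shared with copies in the low Gapdh value was not tested. Eno1b (1.70), Ldha, the lactate dehydrogenase subunit that uses the pyruvate (0.95), Hk2 (0.67), Gpi1 (0.52) and Pfkp (0.45) did not pass either.

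**Figure D4:**
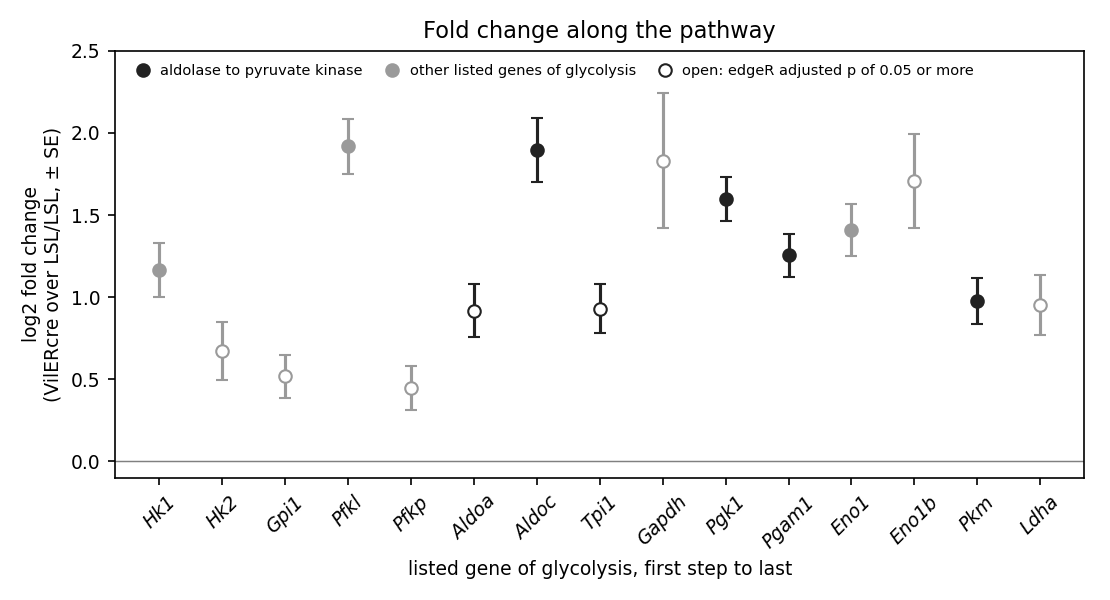
Log2 fold change of Hif1α LSL/LSL;VilERcre over Hif1α LSL/LSL libraries with its standard error (edgeR), for the listed genes of glycolysis from the first step to the last; black marks the 6 genes from aldolase to pyruvate kinase, grey the other 9, and open symbols an adjusted p of 0.05 or more. All 15 lie above 0, between 0.45 for Pfkp and 1.92 for Pfkl.

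The listed genes whose profile over the 6 libraries was nearest to the mean profile of the 6 enzymes were searched among 568 genes that averaged 50 normalized counts or more. Likeness was the root mean square difference in log2 values, each gene centred on its own mean. The 5 nearest were Col11a2, a collagen chain (0.063), 2610528A11Rik (0.080), Slc2a1, the glucose transporter GLUT1 (0.096), Eno1 (0.103) and Gm4735 (0.107). Slc2a1 and Eno1 passed edgeR with log2 fold changes of 1.38 and 1.41 and adjusted p = 0.00594 and 0.00910, as did 2610528A11Rik with 1.18 and 0.0192. Col11a2 and Gm4735 did not pass (adjusted p = 0.645 and 0.274 from edgeR). The 6 enzymes themselves lay at 0.115 (Pgam1) to 0.371 (Aldoc) from their own mean profile.

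Markers of other cell types were read beside the 6 genes, and 6 of 57 markers were listed. Fabp6, the bile acid binding protein of ileal enterocytes, was abundant in all libraries, with 66850, 51098 and 36234 normalized counts in the libraries labelled overexpression and 44735, 37897 and 33689 in flox controls, which overlapped. Lgr5, the marker of intestinal stem cells and the other of 19 epithelial markers to be listed, had 329, 395 and 394 normalized counts in the libraries labelled overexpression, against 448, 507 and 531 in flox controls, which did not overlap. Lgr5 did not pass (log2 fold change -0.41, adjusted p = 1 from edgeR), and Fabp6 did not either (0.41, adjusted p = 1 from edgeR). The order of Fabp6 within the overexpression group, highest in replicate 1 and lowest in replicate 3, was that of Aldoa, Aldoc, Tpi1 and Pkm. In flox controls Fabp6 was highest in replicate 1, whereas Aldoa, Tpi1 and Pkm were highest in replicate 2 and Aldoc in replicate 3. Acta1, the actin of skeletal muscle and 1 of 6 markers of that tissue to be listed, had 950.2, 587 and 675 normalized counts in the libraries labelled overexpression, against 189, 137 and 281 in flox controls, and passed (log2 fold change 1.87, adjusted p = 0.0485 from edgeR). None of 6 smooth muscle, 6 stromal and endothelial or 7 neuronal and glial markers was listed. The red cell marker Hba-a2, 1 of 4, had 14.0 to 29.9 normalized counts in the libraries labelled overexpression and 31.1 to 125 in flox controls. The part of these cell types in the levels of the 6 genes was not tested.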

How the data were processed

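Ileum RNA of 6 mice was sequenced after poly-A selection, in read pairs of 150 bp. The authors used HISAT2 (version 2.0.5) with GRCm38 for alignment and featureCounts for counting. Their deposited counts are whole numbers per gene. A normalized signal deposited beside them, called normalized counts here, is the count over 1 size factor per library, and the deposited FPKM is scaled by gene length and library total. The authors' log2 fold changes were not read. The authors' p-value columns served only to find how the table was selected (p under 0.05) and how many genes were tested (19204).

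The 767 genes that averaged 5 normalized counts or more were fitted with edgeR (version 4.0.16, R 4.3.3), by the quasi-likelihood test on counts scaled by the deposited size factors, 3 libraries against 3, with no covariate. The spread between libraries was estimated from these 767 genes alone, which the authors' p had already selected for the same comparison. How far this moved the p-values was not tested. P-values were adjusted by the Benjamini-Hochberg method over 19204 genes, at a threshold of 0.05. A group-by-sex interaction was fitted the same way. Ratios, shares and sums per library were compared by exact permutation, two-sided. Other settings were the replicate number as a block, a sex term, the males alone, leaving out 1 library at a time, TMM or library totals as scaling, DESeq2 (version 1.42.0), limma (version 3.58.1), no filter, and adjustment over 55536 annotated genes. Named genes were the 6 enzymes, the 5 listed genes of most similar profile, the listed genes of a glycolysis list and listed copies. Copies were searched by the full symbol of an enzyme, which left out Tpi-rs11. Members and lists were chosen with earlier results of these data known. Library totals ran from 18918341 to 24905343. Counting noise was not separated from the spread over 3 mice, and Aldoc had 142, 174 and 219 reads in flox controls. The edgeR group fit and the group-by-sex fit were tried on simulated counts, and the permutation step on small made-up sets of values. Some items of the gene and marker lists are not reported here.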

Additional observations from a re-analysis of the deposited data

How the results depend on the processing

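All 6 genes kept a positive log2 fold change in the 14 alternative fits, within 0.77 to 1.03 for Aldoa, 1.75 to 2.13 for Aldoc, 0.79 to 1.02 for Tpi1, 1.45 to 1.68 for Pgk1, 1.11 to 1.33 for Pgam1 and 0.83 to 1.04 for Pkm. Of these fits 12 called Pgk1, 11 Aldoc, 10 Pgam1, 5 Pkm, 3 Tpi1 and 2 Aldoa. The number of the 6 genes called was 4, against 0 in males only, 0 with limma and 1 to 3 when 1 library was left out; fewer samples lower such counts by construction. Of all listed genes 22 were called, against 1 in males only, 6 with limma, 73 with DESeq2, 13 adjusted over all annotated genes and 4 to 13 when 1 library was left out. The replicate block called 39 listed genes, with all 6 enzymes among them (Aldoa adjusted p = 0.0193, Tpi1 0.00941). The number was not taken as a pairing, since the correlations of the deviations of same-numbered mice were 0.065, 0.044 and 0.091, none over 0.1, though every library correlated best with its own number. Same-numbered mice are of the same sex, so the block also takes up the split by sex. TMM moved the median of all genes by -0.14 on the log2 scale, and Pkm then had an adjusted p of 0.0827. The span of the 6 log2 fold changes, 0.98, was 0.67 on log2(FPKM + 1), where the added 1 shrinks the low Aldoc values. Of 120 values of the pair ratios, 3 changed sign, all under 0.01 in size, in Pkm over Tpi1 and Tpi1 over Aldoa. With 3 mice per group no exact permutation test could go below 0.1, so its p says nothing on stability.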
